A study of Mus musculus with 8 samples.

Results

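The 10 genes described here form the core of the circadian clock and its nearest output, namely Arntl, Clock, Per1, Per2, Per3, Cry1, Nr1d1, Nr1d2, Dbp and Tef. They were taken by symbol from a table of 19267 genes counted in mouse liver, and were chosen with earlier results of these data known. All 10 passed a filter on low counts that left 13993 genes. Liver RNA (total RNA in the labels, mRNA in the study's methods) came from male C57BL/6 mice aged 9 weeks, in 4 groups of 2 libraries. WT-Control and WT-EtOH mice were the WT animals, which carry Cre per the study's methods, and Elf4-/--Control and Elf4-/--EtOH mice were Elf4fl/fl-Villin-Cre animals. In the latter, the villin promoter drives Cre, and Elf4, which encodes an ETS transcription factor, is deleted from the gut epithelium, so the liver itself is not the deleted tissue. Mice were pair-fed a Lieber-DeCarli liquid diet for 21 days from the age of 6 weeks, in which the EtOH groups received 5% (w/v) alcohol and the Control groups an isocaloric amount of maltose dextrin in its place. The light-dark cycle was regular, but the hour at which each liver was taken is not in the labels or in the methods. Sampling hour and group therefore cannot be told apart for genes that oscillate over the day. The labels do not say whether the 2 libraries of a group came from separate mice, so p-values cover the spread between these libraries, which may be technical.

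The clock is a feedback loop of transcription. ARNTL (also called BMAL1) and CLOCK bind E-box elements as a pair and drive Per, Cry, Nr1d and Dbp genes, and the PER and CRY proteins then block that pair. The nuclear receptors NR1D1 and NR1D2 (REV-ERBs) repress Arntl through ROR elements, so Arntl and Dbp peak in mouse liver in nearly opposite parts of the day, while DBP and TEF are PAR bZIP factors that bind D-box elements in genes of metabolism and detoxification, Per genes among them.

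The DNA elements through which the loop closes can be read near the start sites of several members. RefSeq windows of GRCm38.p6, running from 250 bases before to 50 bases after a start site, matched 9 of the 10 symbols in 14 windows, and Per2 had no entry. Each window was searched on both strands for the E-box CACGTG, for the D-box as TTATGTAA, TTACGTAA or TTATATAA, and for the ROR half-site TAGGTCA. No spelling of one motif contains another. The E-box was found in 7.15% of all 32851 windows, the D-box in 1.59% and the ROR half-site in 2.61%. Among the members, an E-box lay upstream in Per1 (166 bases before the start site, intronic to a longer transcript) and in Cry1 (60 bases). Both windows of Tef also held an E-box (127 and 138 bases upstream). Both of these lie inside the annotated Tef gene, and the second is intronic. Per3 held 2 D-boxes, at 205 and 158 bases, in a stretch that is also intronic to Camta1, and Arntl held 1 ROR half-site 30 bases after a start site. The windows of Clock, Nr1d1, Nr1d2 and Dbp held none of these letters. Ciart, a clock repressor from the list of other core loop genes described further on, held 3 E-boxes within 116 bases of its start. The stretches are shown because they carry the elements named above, with the motif in capitals.

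Per1, E-box, chr11:69098768-69098803, plus strand: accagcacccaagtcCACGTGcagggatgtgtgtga

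Cry1, E-box, chr10:85185094-85185129, minus strand: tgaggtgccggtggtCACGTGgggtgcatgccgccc

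Tef, E-box, chr15:81811261-81811296, plus strand: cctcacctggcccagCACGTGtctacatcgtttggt

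Per3, both D-boxes, chr4:151044801-151044885, minus strand: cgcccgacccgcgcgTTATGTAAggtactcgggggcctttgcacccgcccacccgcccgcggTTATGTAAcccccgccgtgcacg

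Ciart, all 3 E-boxes, chr3:95882252-95882359, minus strand: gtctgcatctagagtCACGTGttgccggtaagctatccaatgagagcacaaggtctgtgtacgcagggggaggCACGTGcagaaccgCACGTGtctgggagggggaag

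Library totals ran from 6171051 to 9157362 counts. Values below are CPM, counts scaled to a common library size with a TMM factor. The targeted gene Elf4 had 6 to 36 counts in every library and the genotypes overlapped, which checks nothing about the labels because liver was not the deleted tissue. Diets lay apart on the leading principal component of all genes (51.6% of variance), and Elf4-/--EtOH replicate 1 lay apart from the other 7 libraries on the next (12.9%). The 7 hepatocyte markers summed to 31242 CPM or more in every library, and none of them was at 0. In bulk liver RNA, fewer cells of a type and less RNA per cell cannot be told apart.

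Per kilobase of exon, the output genes, the Nr1d genes and the Per genes stood above Clock, Cry1 and Arntl in WT-Control. In WT-Control, Dbp had the highest level of the members at 122 ± 2.84 CPM per kilobase of exon (SD, n = 2), followed by Nr1d1 at 69.2 ± 7.52 and Tef at 45.7 ± 1.47. Nr1d2 stood at 25.7 ± 1.23. Per2 reached 17.6 ± 0.83, Per1 10.8 ± 1.28 and Per3 5.89 ± 0.61 on the same scale. Clock (1.95 ± 0.16) and Cry1 (1.64 ± 0.60) overlapped each other, and Arntl was lowest at 0.22 ± 0.11. Under EtOH the order changed at the top, where Tef led in WT-EtOH (27.9 ± 9.36) and in Elf4-/--EtOH (23.6 ± 7.18). Dbp stood at 13.9 ± 11.7 and 18.7 ± 17.1 in these groups and overlapped Tef and Per2. Arntl had the lowest mean of the members in all 4 groups, but in Elf4-/--EtOH its libraries (0.211 and 1.80 CPM per kilobase) overlapped those of Clock (1.56 and 2.82).

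**Figure D1:**
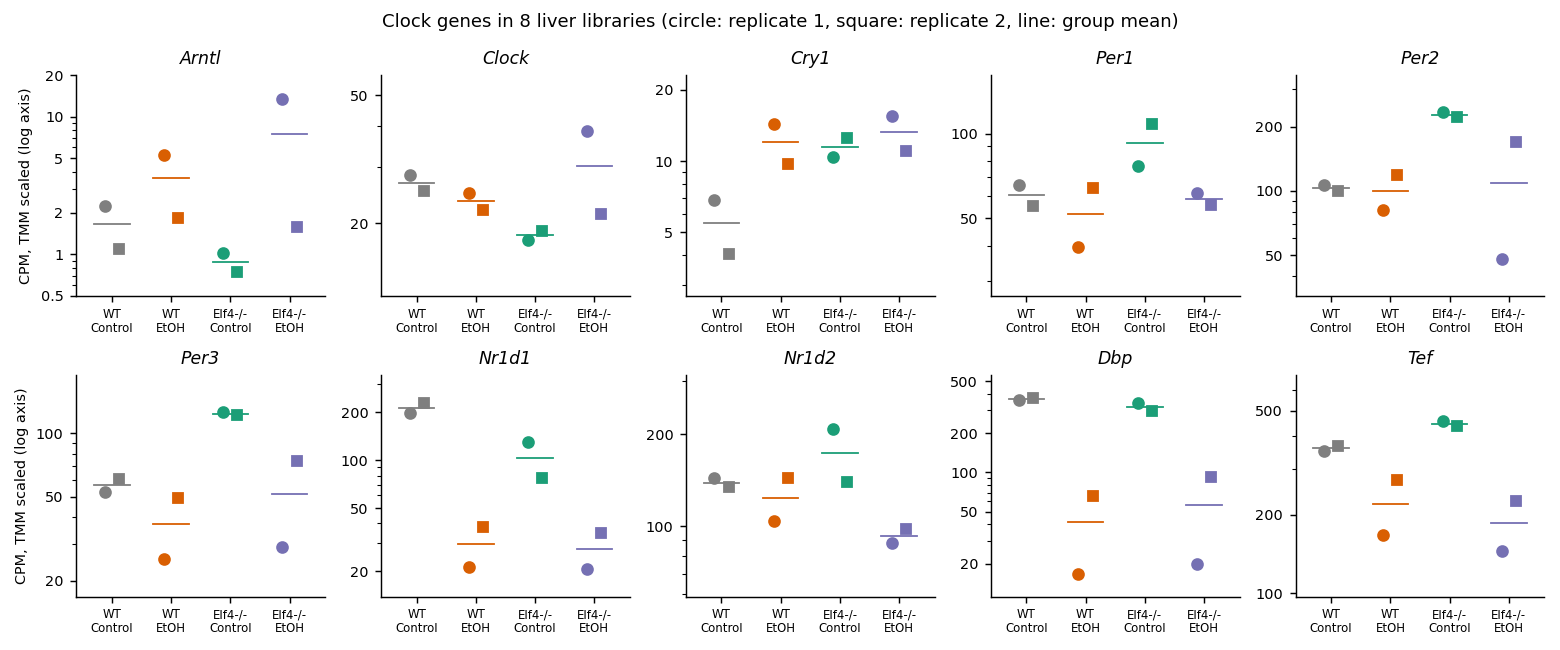
Level of each of the 10 clock genes in each of the 8 libraries, in TMM-scaled CPM on a log axis whose range differs between panels, with circles for replicate 1, squares for replicate 2 and a line for the group mean. Nr1d1, Dbp and Tef were lower in all 4 EtOH libraries than in any Control library, and the 2 EtOH libraries of a genotype differed at least 1.95-fold for Arntl, Dbp and Per3.

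The first question was whether the alcohol diet moved the clock genes in liver. Over both genotypes, under EtOH, Nr1d1 stood at 0.194 times, Dbp at 0.142 times and Tef at 0.504 times the Control level. Arntl was 4.14-fold higher, but its diets overlapped and its Control libraries had 5 to 12 counts. Diet and sampling hour cannot be told apart here. Of the 10 members, 1 rose and 5 fell past the threshold (edgeR quasi-likelihood test, Benjamini-Hochberg adjusted over 13993 genes, threshold 0.05), against 28.0% of all genes tested, of which 14.1% rose and 13.9% fell. The median log2 fold change was −0.54 over the members and 0.01 over all genes. In WT alone 1 member rose and 2 fell, against 21.6% of all genes (10.8% in each direction), and in Elf4-/- alone 1 fell, against 2.89% of all genes in either direction and 1.18% that fell. At an unadjusted p under 0.05 there were 4 members in WT (36.4% of all genes) and 9 in Elf4-/- (21.2% of all genes).

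Arntl, the activator that the loop cannot do without, lies at chr7:113207465-113314126 on the plus strand of GRCm38. It had 2.23 and 1.10 CPM under Control and 5.30 and 1.83 under EtOH in WT, as against 1.02 and 0.744 under Control and 13.5 and 1.59 under EtOH in Elf4-/-, or 12, 6, 42, 18, 10, 5, 85 and 12 counts in the same order. The 2 high libraries were both EtOH, whereas the other 2 EtOH libraries lay within or next to the Control range. Over both genotypes the log2 fold change was 2.05 ± 0.67 (SE; edgeR, adjusted p = 0.0452). This call was lost when any library other than Elf4-/--EtOH replicate 2 was left out, and without Elf4-/--EtOH replicate 1 the value was 0.94. Within a genotype it did not pass, with 1.07 ± 0.95 in WT (edgeR, adjusted p = 0.444) and 3.03 ± 0.95 in Elf4-/- (edgeR, adjusted p = 0.109).

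Clock, the partner of Arntl, is encoded at chr5:76209868-76304792 on the minus strand. Its levels were 28.3 and 25.2 CPM in WT-Control against 24.9 and 22.1 in WT-EtOH, with 17.8 and 18.9 for the Elf4-/--Control and 38.7 and 21.5 for the Elf4-/--EtOH libraries. The diet groups did not overlap within either genotype but lay in opposite order, with EtOH below Control in WT and above it in Elf4-/-. Neither difference passed the threshold (log2 fold change −0.19 ± 0.27 in WT, edgeR adjusted p = 0.642, and 0.71 ± 0.27 in Elf4-/-, edgeR adjusted p = 0.167). The sign in WT turned to 0.24 when libraries were scaled by their totals alone.

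Among the repressors of that pair, Cry1 (chr10:85131700-85185064, minus strand) rose in WT. It had 6.89 and 4.04 CPM in WT-Control against 14.3 and 9.76 in WT-EtOH, and both EtOH libraries lay above both Control libraries. The log2 fold change was 1.13 ± 0.35 (SE; edgeR, adjusted p = 0.0440). The call was lost without any one of the 4 WT libraries (adjusted p up to 0.246, without WT-EtOH replicate 1) and without either Elf4-/--Control library, but not without an Elf4-/--EtOH library. In Elf4-/- the levels were 10.4 and 12.5 CPM under Control and 15.4 and 11.0 under EtOH, which overlapped, with a log2 fold change of 0.20 ± 0.32 (edgeR, adjusted p = 0.761).

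The 3 Per genes encode the partners of the CRY proteins in the repressor complex. Per3 (chr4:151003652-151044665, minus strand) had 52.5 and 60.8 CPM under Control and 25.2 and 49.3 under EtOH in WT, as against 127 and 122 under Control and 29.0 and 74.2 under EtOH in Elf4-/-. It was lower under EtOH within each genotype without overlap, and over both genotypes it fell by 0.93 ± 0.29 on the log2 scale (SE; edgeR, adjusted p = 0.0363). That call was lost without any 1 of 5 libraries, which were both WT-Control libraries, WT-EtOH replicate 1 and both Elf4-/--Control libraries (adjusted p up to 0.121), and also with library totals alone (0.0997). Per2 (chr1:91415982-91459324, minus strand) had 106 and 99.6 CPM in WT-Control against 81.1 and 119 in WT-EtOH, with 234 and 221 for the Elf4-/--Control and 48.2 and 170.3 for the Elf4-/--EtOH libraries. The EtOH libraries enclosed the Control libraries in WT and lay below them in Elf4-/-. Neither difference passed (log2 fold change −0.04 ± 0.45 in WT, edgeR adjusted p = 0.959, and −1.06 ± 0.45 in Elf4-/-, edgeR adjusted p = 0.218), although without Elf4-/--EtOH replicate 2 the value in Elf4-/- was −2.26 (edgeR, adjusted p = 0.000776).

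Per1 (chr11:69095217-69109960, plus strand), the Per gene that also answers acutely to hormones, had 65.7 and 55.5 CPM under Control and 39.6 and 64.0 under EtOH in WT, as against 76.4 and 108 under Control and 61.4 and 55.9 under EtOH in Elf4-/-. WT groups overlapped, and in Elf4-/- both EtOH libraries lay below both Control libraries. The log2 fold changes were −0.22 ± 0.26 in WT (edgeR, adjusted p = 0.571) and −0.65 ± 0.26 in Elf4-/- (edgeR, adjusted p = 0.188). Scaling by library totals alone, which shifts the median of all genes in WT by 0.43, turned the WT values of Per1, Per2 and Nr1d2 to 0.22, 0.40 and 0.28.

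Nr1d1, which encodes the REV-ERB repressor of Arntl, was the member called lower in both genotypes. It lies at chr11:98767932-98775333 on the minus strand and had 197 and 229 CPM in WT-Control against 21.3 and 38.1 in WT-EtOH, with 131 and 76.8 for the Elf4-/--Control and 20.8 and 34.8 for the Elf4-/--EtOH libraries. The 4 EtOH libraries (20.8 to 38.1 CPM) lay below the 4 Control libraries (76.8 to 229 CPM). Nr1d1 fell by 2.84 ± 0.37 on the log2 scale in WT (SE; edgeR, adjusted p = 0.00220) and by 1.90 ± 0.36 in Elf4-/- (edgeR, adjusted p = 0.0284). The call in WT held under all 16 alternatives, with adjusted p of at most 0.0185. The call in Elf4-/- was lost without either Elf4-/--Control library (adjusted p = 0.197 and 0.132), without Elf4-/--EtOH replicate 1 (0.0766), and when only the 4 Elf4-/- libraries were fitted (0.0953).

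Its paralog Nr1d2 (chr14:18204054-18239127, minus strand) had 143 and 134 CPM under Control and 104 and 144 under EtOH in WT, as against 209 and 139.5 under Control and 88.5 and 98.3 under EtOH in Elf4-/-. WT groups overlapped and Elf4-/- groups did not. Over both genotypes it fell by 0.53 ± 0.18 (SE; edgeR, adjusted p = 0.0486), a call that was lost without any 1 of 6 libraries, the exceptions being Elf4-/--Control replicate 2 and Elf4-/--EtOH replicate 2, and also with library totals alone (0.232), without the filter on low counts (0.0580) and with the replicate number as a block (0.0689).

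Dbp, the PAR bZIP output gene, showed the largest fold of the members in WT. It is encoded at chr7:45705088-45710203 on the plus strand, and its levels were 360.5 and 372 CPM in WT-Control against 16.8 and 66.4 in WT-EtOH, with 339.6 and 295 for the Elf4-/--Control and 19.7 and 92.2 for the Elf4-/--EtOH libraries. The 4 Control libraries spanned 295 to 372 CPM and the 4 EtOH libraries 16.8 to 92.2 CPM, with no overlap. Dbp fell by 3.13 ± 0.71 on the log2 scale in WT (SE; edgeR, adjusted p = 0.0142), and this call was lost without WT-Control replicate 1 (0.0518) or WT-EtOH replicate 1 (0.0789). In Elf4-/- the value was −2.50 ± 0.69 (edgeR, adjusted p = 0.0810). It was −4.03 without Elf4-/--EtOH replicate 2 (edgeR, adjusted p = 0.00366). Over both genotypes Dbp fell by 2.82 ± 0.50 (edgeR, adjusted p = 0.00332), which held under all 15 alternatives with values from −4.24 to −2.12.

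Tef (chr15:81802421-81826863, plus strand), which binds the same D-box element, moved less. It had 351 and 367 CPM under Control and 168 and 272 under EtOH in WT, as against 458 and 436 under Control and 145 and 225 under EtOH in Elf4-/-. As with Dbp, no EtOH library reached the lowest Control library. Over both genotypes Tef fell by 0.99 ± 0.21 on the log2 scale (SE; edgeR, adjusted p = 0.00701), under all 15 alternatives. The values within a genotype were −0.71 ± 0.29 in WT (edgeR, adjusted p = 0.107) and −1.27 ± 0.29 in Elf4-/- (edgeR, adjusted p = 0.0502).

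In 3 of the 10 members, Nr1d1, Dbp and Tef, the 4 EtOH libraries did not overlap the 4 Control libraries, all 3 lower under EtOH, while 27.9% of all genes tested did not overlap in either direction and 14.0% were lower. Within WT, 1 member was higher and 5 were lower under EtOH without overlap (34.1% and 32.7% of all genes, 66.8% in either direction). Within Elf4-/-, 2 were higher and 7 lower (25.8% and 26.4% of all genes, 52.2% in either direction). With 2 libraries a side, such counts carry little weight.

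**Figure D2:**
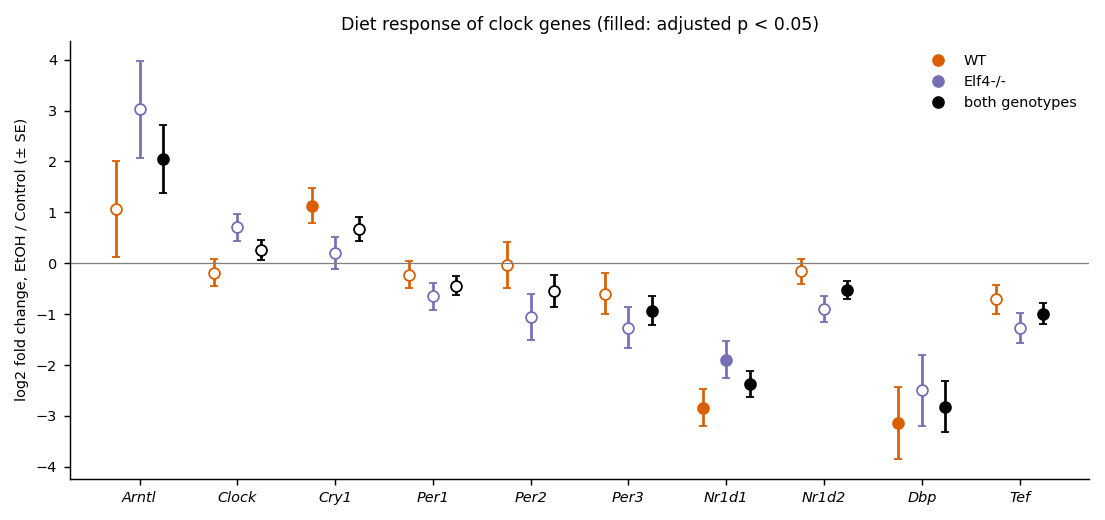
Log2 fold change of each clock gene under EtOH against Control, with bars of 1 SE, in WT (orange), in Elf4-/- (purple) and over both genotypes (black), where filled points have an adjusted p under 0.05. Nr1d1 and Dbp lay between −3.13 and −1.90 in both genotypes, Arntl lay above 1 in both, and Clock had opposite signs, of which that in WT turned to 0.24 with library totals alone.

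Sharing of exons with genes on the other strand touches 2 of these results. Dbp shares 539 exonic bases with Sphk2, a sphingosine kinase gene, and Nr1d1 shares 263 with Thra, the thyroid hormone receptor gene. The strand setting of the counting is not given in the sources used here, so reads in the shared bases cannot be assigned to one strand with certainty. Thra had 1160 and 937 counts in WT-Control against 130 and 304 in WT-EtOH, with 981 and 467 for the Elf4-/--Control and 146 and 196 for the Elf4-/--EtOH libraries. Sphk2 had 1490 and 1323, 468 and 683, 2090 and 1631, and 267 and 676 counts in the same groups. Both neighbours fell with the diet, Thra by 3.03 in WT and by 1.79 in Elf4-/- (edgeR, adjusted p = 0.00120 and 0.0229), and Sphk2 by 2.02 and by 1.79 (edgeR, adjusted p = 0.00373 and 0.0255). How far reads of the shared bases enter the members' counts was not tested. Arntl and Tef share 33 and 193 exonic bases with antisense genes that had at most 3 and 10 counts in any library.

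The second question was whether the genotype moved the same genes. Under EtOH none of the 10 members passed the threshold (0.143% of all genes did), none had an unadjusted p under 0.05 (edgeR), and DESeq2 called none. The intervals stayed wide. Dbp differed by 0.43 with a 95% interval from −1.05 to 1.91 on the log2 scale, Arntl by 1.08 (−0.75 to 2.91), and Nr1d1 by −0.10 (−0.89 to 0.70). Only Nr1d2 had WT-EtOH and Elf4-/--EtOH libraries that did not overlap (lower in Elf4-/-), against 41.3% of all genes in either direction and 21.4% that were lower.

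Under the Control diet, none of the 10 passed over all genes (0.0143% of all genes did) and DESeq2 called none, but 5 had an unadjusted p under 0.05 (edgeR), against 7.31% of all genes. Per2 had 106 and 99.6 CPM in WT-Control against 234 and 221 in Elf4-/--Control, a log2 difference of 1.14 ± 0.46 (SE; edgeR, unadjusted p = 0.0310, adjusted p = 0.649). Per3 was 1.13 ± 0.41 (edgeR, unadjusted p = 0.0190), Cry1 1.06 ± 0.35 (0.0123) and Per1 0.61 ± 0.26 (0.0432) in the same direction. Nr1d1 was lower in Elf4-/-, at −1.03 ± 0.35 (edgeR, unadjusted p = 0.0138), whereas Dbp was at −0.21 ± 0.65 (edgeR, unadjusted p = 0.755). The groups did not overlap in 9 of the 10 members, 5 higher and 4 lower in Elf4-/-, against 20.0% and 18.5% of all genes, or 38.5% in either direction. All 5 differences failed the correction over all genes.

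The difference between the diet effects of the 2 genotypes, the interaction, was past the threshold for no member and for 0% of all genes (edgeR), and DESeq2 called no member. At an unadjusted p under 0.05 there was 1 member, Clock, at 0.90 ± 0.38 on the log2 scale (edgeR, unadjusted p = 0.0382, adjusted p = 0.463), against 10.1% of all genes. Without Elf4-/--EtOH replicate 2, Per2 passed (−2.21, edgeR, adjusted p = 0.0160). The effect of Nr1d1 in Elf4-/- was not shown to be smaller than in WT (0.94, 95% interval −0.17 to 2.04).

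The 2 libraries of each EtOH group differed in the clock genes by more than in other genes at the median, and in the same sense. The median absolute log2 difference between the replicates was 0.692 over the members against 0.225 over all genes in WT-EtOH, and 0.787 against 0.375 in Elf4-/--EtOH. In the Control groups the members differed by no more than other genes at the median (0.189 against 0.348 in WT-Control and 0.230 against 0.248 in Elf4-/--Control).

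Dbp was 3.96 times higher in WT-EtOH replicate 2 than in replicate 1, and 4.67 times higher in Elf4-/--EtOH replicate 2 than in replicate 1. Among all genes, 0.529% and 2.04% had replicate differences as large in those groups. Arntl went the other way and was 2.89 and 8.51 times higher in replicate 1, differences that 1.79% and 0.786% of all genes reached. Between the WT-Control replicates, Dbp differed 1.03-fold and Tef 1.05-fold, but Arntl differed 2.03-fold (12 and 6 counts) and Cry1 1.70-fold. In Elf4-/--Control, Nr1d1 differed 1.70-fold, a difference that 11.2% of all genes reached, against 1.67-fold and 24.5% in Elf4-/--EtOH.

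The libraries numbered 1 of both EtOH groups thus had higher Arntl, Clock and Cry1 and lower Dbp, Tef, Per2, Per3, Nr1d1 and Nr1d2 than the libraries numbered 2. In WT-EtOH 9 of the 10 differences exceeded 2 counting standard errors (not that of Clock). In Elf4-/--EtOH 8 did (not those of Per1 and Nr1d2). Of the 10 members 9 had the same sign of replicate difference in the 2 EtOH groups, the exception being Per1, while 50.9% of all genes shared the sign. Other pairs of groups were uneven too. WT-Control shared the sign of 8 members with Elf4-/--EtOH, 7 with WT-EtOH and 3 with Elf4-/--Control. Elf4-/--Control shared 2 with WT-EtOH and 1 with Elf4-/--EtOH. The members belong to the same loop, so their signs are not independent. The labels name no batch for the replicate numbers. Over all genes the replicate differences of different groups had little correlation (r from −0.109 to 0.0594 across 13993 genes). Such values cannot show whether libraries with the same number shared a condition that acts on few genes, which was not tested. Per2 differed 3.53-fold between the Elf4-/--EtOH replicates and 1.47-fold between the WT-EtOH replicates, and Per3 2.56-fold and 1.95-fold. Whether the hour of sampling differed between them was not tested.

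**Figure D3:**
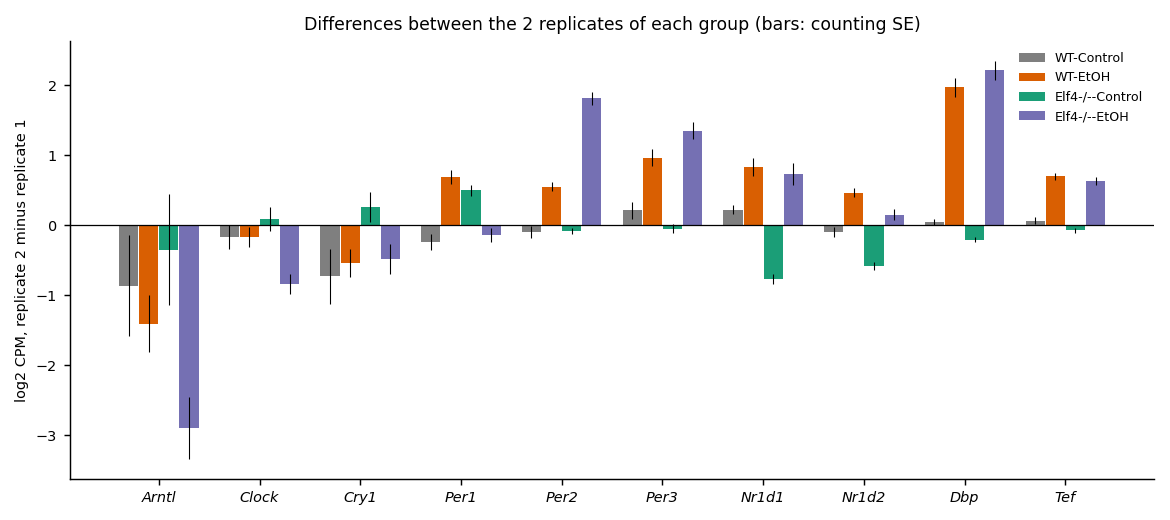
Log2 CPM of replicate 2 minus replicate 1 for each clock gene in each group, with bars of 1 counting standard error. In WT-EtOH and Elf4-/--EtOH, Arntl, Clock and Cry1 lay below 0 and Per2, Per3, Nr1d1, Nr1d2, Dbp and Tef above 0, while the Control groups had Dbp and Tef within 0.21 of 0. Larger Control differences included −0.87 for Arntl and −0.73 for Cry1 in WT-Control and −0.77 for Nr1d1 in Elf4-/--Control.

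The ratio of Dbp to Arntl counts, which opposes an output of the loop to its activator, summarised the libraries. Under Control it was 161 and 338 for WT and 332 and 396 for Elf4-/-. Under EtOH it was 3.17 and 36.3 for WT, and 1.46 and 58.0 for Elf4-/-. Every EtOH library lay below every Control library, and the lowest values were in the libraries numbered 1 of both EtOH groups. The ratio of Per2 to Nr1d1 counts ran from 0.434 to 0.541 in WT-Control, from 3.12 to 3.80 in WT-EtOH, from 1.79 to 2.88 in Elf4-/--Control and from 2.31 to 4.89 in Elf4-/--EtOH. WT-Control was therefore the lowest group for this ratio, and the other 3 groups lay at 1.79 or above.

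**Figure D4:**
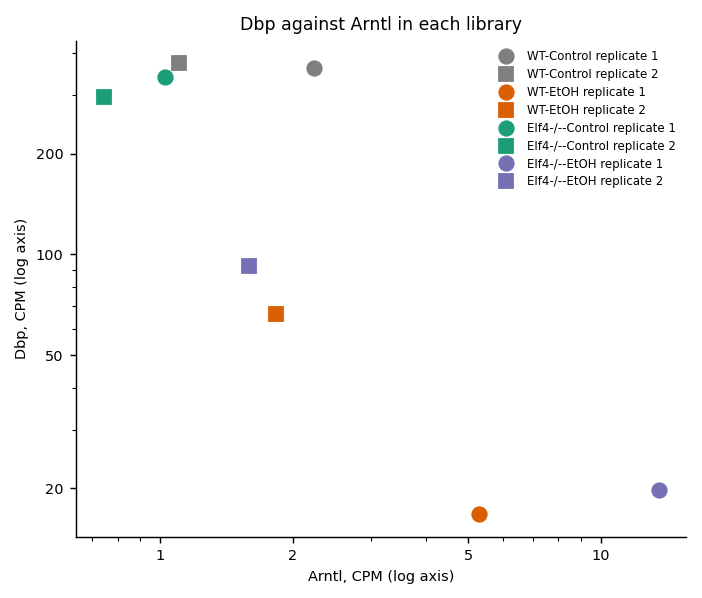
Dbp against Arntl in each library, in TMM-scaled CPM on log axes. The 4 Control libraries sit together at the top left (Dbp 295 to 372 CPM), EtOH replicates 2 of both genotypes lie below them at similar Arntl, and EtOH replicates 1 of both genotypes lie at the lower right (Arntl 5.30 and 13.5 CPM).

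Across the 8 libraries, the members moved in 2 loose sets, given here as a description because the libraries share diets and depth. Dbp followed Tef (Pearson r = 0.948 over log2 CPM, n = 8) and Nr1d1 (0.934), and Per2 followed Per3 (0.923). Arntl followed Clock (0.852) and ran against Tef (−0.894), Per2 (−0.883) and Dbp (−0.839). Cry1 ran against Nr1d1 (−0.824) and Dbp (−0.679), stood at 0.498 with Arntl, and was close to 0 with Clock (0.0574) and Per2 (−0.0787). Among 9389 other genes whose mean reached 50 counts, those most like Arntl were Clpx, Gpatch3, Med1, Tanc1 and Insig2 (r from 0.938 to 0.946), and those most like Dbp were F3, Foxp4, Akap1, Tmie and Clcn2 (r from 0.981 to 0.990). Insig2, a sterol sensor of the endoplasmic reticulum, had 51.2 and 54.0 CPM under Control and 96.8 and 40.8 under EtOH in WT, as against 38.1 and 40.2 under Control and 339 and 53.6 under EtOH in Elf4-/-. It was high in the same 2 libraries as Arntl, which follows from its being picked here for likeness to Arntl.

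The other genes of the core loop were read from a list of 11, of which 9 could be tested. Npas2 had at most 4 counts in any library, and Rorb was not analysed here. In WT 1 rose and 2 fell (21.6% of all genes). In Elf4-/- 0 passed (2.89% of all genes) although 7 of 9 had an unadjusted p under 0.05 (edgeR, against 21.2% of all genes). DESeq2 called 2 there (5.80% of all genes). Over both genotypes 1 rose and 5 fell (28.0% of all genes, 14.1% higher and 13.9% lower), with a median log2 fold change of −0.52. Bhlhe41 (DEC2), a repressor at E-boxes, had 14.0 and 11.0 CPM in WT-Control against 1.89 and 1.93 in WT-EtOH, with 6.24 and 4.32 for the Elf4-/--Control and 0.477 and 1.85 for the Elf4-/--EtOH libraries. It fell by 2.41 ± 0.35 on the log2 scale over both genotypes (SE; edgeR, adjusted p = 0.00142). Ciart, whose 3 E-boxes are printed above, had 38.5 and 20.6 CPM under Control and 2.90 and 13.3 under EtOH in WT, as against 74.0 and 102 under Control and 29.6 and 26.2 under EtOH in Elf4-/-. It fell by 1.75 ± 0.36 (edgeR, adjusted p = 0.00701). Both calls over both genotypes held without any 1 library.

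Nfil3 (E4BP4), which competes with DBP and TEF at the D-box, was the gene of that list that rose, by 0.73 ± 0.17 over both genotypes (edgeR, adjusted p = 0.0116), from 15.3 and 11.8 CPM in WT-Control to 23.5 and 27.3 in WT-EtOH. In Elf4-/- its levels were 9.00 and 10.7 CPM under Control and 15.8 and 13.0 under EtOH. Hlf, the PAR bZIP relative of Dbp, fell by 0.65 ± 0.16 (edgeR, adjusted p = 0.0142), Cry2 by 0.67 ± 0.17 (0.0155) and Bhlhe40 by 0.52 ± 0.16 (0.0370). Of the 8 fits that each left out 1 library, Nfil3 kept its call in 6 (not without WT-EtOH replicate 2 or Elf4-/--Control replicate 1) and Hlf in 6 (not without WT-EtOH replicate 1 or Elf4-/--Control replicate 2). Cry2 kept it in 4 (not without WT-Control replicate 2, either WT-EtOH library or Elf4-/--Control replicate 2), and Bhlhe40 in 2 (WT-Control replicate 1 and Elf4-/--EtOH replicate 2 left out).

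Of 21 kinases, ubiquitin ligases and cofactors of the clock, 4 rose and 2 fell in WT (21.6% of all genes). In Elf4-/- 0 passed (2.89% of all genes) and 2 had an unadjusted p under 0.05 (edgeR, against 21.2% of all genes). DESeq2 called 0 there (5.80% of all genes). Nampt, the NAD salvage enzyme whose product feeds SIRT1, had 43.4 and 46.3 CPM in WT-Control against 154 and 130.5 in WT-EtOH, a rise of 1.67 ± 0.31 on the log2 scale (SE; edgeR, adjusted p = 0.00650) that held without any 1 library. Its levels in Elf4-/- were 104 and 121 CPM under Control and 84.5 and 172 under EtOH, which overlapped. Usp2, a deubiquitinase, rose in WT by 1.08 ± 0.27 (edgeR, adjusted p = 0.0220), while Btrc, a ligase subunit that marks PER proteins for degradation, fell by 1.20 ± 0.28 (0.0152), and the deacetylase gene Hdac3, a partner of NR1D1, fell by 0.79 ± 0.19 (0.0169). These 3 calls were lost without WT-EtOH replicate 2. They were also lost without WT-Control replicate 2 for Usp2 and Btrc, without WT-Control replicate 1 for Hdac3, and without WT-EtOH replicate 1 for Btrc and Hdac3.

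Of 18 liver genes known as rhythmic outputs, 4 rose and 3 fell in WT (21.6% of all genes, 10.8% in each direction), and 2 rose and 1 fell in Elf4-/- (2.89% of all genes). Elovl3, a fatty acid elongase that NR1D1 represses, had 71.1 and 73.5 CPM in WT-Control against 15.9 and 11.3 in WT-EtOH, a fall of 2.41 ± 0.25 (SE; edgeR, adjusted p = 0.000992) that held without any 1 library. Upp2, a uridine phosphorylase, had 507 and 733 CPM in WT-Control against 65.0 and 61.5 in WT-EtOH, with 659.5 and 992 for the Elf4-/--Control and 691 and 317 for the Elf4-/--EtOH libraries. It fell by 3.29 ± 0.41 in WT (edgeR, adjusted p = 0.00182) and was higher in Elf4-/- than in WT under EtOH, by 2.99 ± 0.40 (edgeR, adjusted p = 0.0288). Noct, which encodes nocturnin, was likewise higher in Elf4-/- under EtOH (105 and 135 CPM against 24.9 and 30.4, a log2 difference of 2.12 ± 0.31, edgeR adjusted p = 0.0414). Both differences under EtOH were lost without either WT-EtOH library and without Elf4-/--Control replicate 1, that of Upp2 also without either WT-Control library and that of Noct also without Elf4-/--Control replicate 2. Among D-box targets of detoxification, Cyp2a5 rose by 3.67 ± 0.42 in WT and 2.69 ± 0.41 in Elf4-/- (edgeR, adjusted p = 0.00150 and 0.0161), while Por and Alas1 rose in WT by 1.74 and 2.61 (edgeR, adjusted p = 0.0196 and 0.0275). Por and Alas1 did not pass in Elf4-/-. In the same list of 18, Cyp2a4 rose by 6.67 ± 1.05 in WT and 5.26 ± 0.96 in Elf4-/- (edgeR, adjusted p = 0.00359 and 0.0273). Gys2 fell in Elf4-/- by 1.53 ± 0.35 (edgeR, adjusted p = 0.04998), and its value ran from −2.29 to −1.04 without 1 library. Cyp2a5 kept its call in WT without any 1 library and lost that in Elf4-/- without either Elf4-/--Control library, while Por and Alas1 lost theirs without any 1 of the 4 WT libraries.

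**Figure D5:**
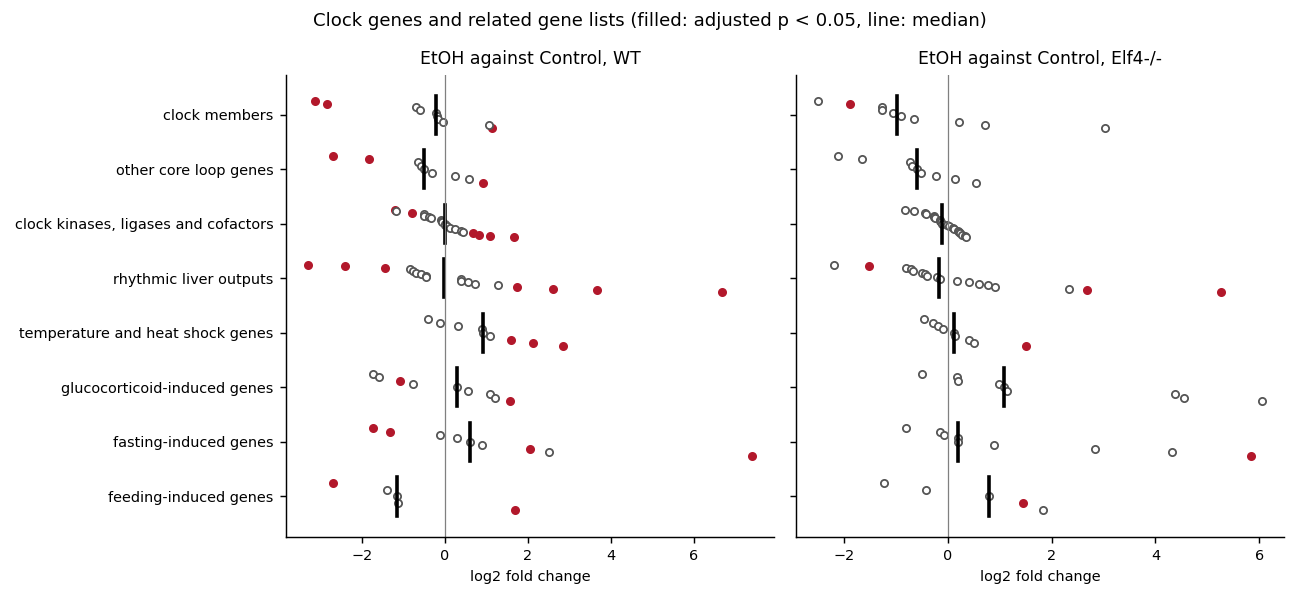
Log2 fold change under EtOH of the 10 clock members and of 7 further gene lists, in WT and in Elf4-/-, with 1 point per gene, filled where the adjusted p is under 0.05, and a line at each list's median. In WT the clock members had a median of −0.21 and the other core loop genes of −0.51, and in Elf4-/- the medians were −0.98 and −0.60.

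Lists of genes that answer to hormones, meals and temperature were read beside the clock because such signals set liver rhythms. Glucocorticoid-induced genes separated the Elf4-/--EtOH libraries, as all 9 tested were lower in replicate 2 than in replicate 1, with a median log2 difference of −2.69, as against −0.76 in WT-EtOH, −0.37 in WT-Control and 1.13 in Elf4-/--Control. Fkbp5, a classic target of the receptor, had 165 and 25.3 CPM in Elf4-/--EtOH, 89.6 and 61.6 in WT-EtOH, 52.9 and 13.0 in WT-Control, as well as 26.1 and 63.9 in the Elf4-/--Control libraries. The 9 fasting-induced genes were also all lower in Elf4-/--EtOH replicate 2 (median −1.20), while in WT-EtOH 3 of 9 were higher in replicate 2 (median −0.07). In WT-EtOH 2 of the 9 glucocorticoid-induced genes were higher in replicate 2 and the other 7 lower. The part of such signals in the clock values was not tested. By diet in WT, 1 of 9 glucocorticoid-induced genes rose and 1 fell, against 21.6% of all genes (Sgk1 by 1.58 and Klf9 by 1.08, edgeR adjusted p = 0.0380 and 0.0302). Sgk1 lost its call without any 1 library other than the Elf4-/--EtOH libraries, and Klf9 likewise except that it kept the call without WT-Control replicate 2. Among 9 fasting-induced genes 2 rose (Pdk4 and Fgf21) and 2 fell (Pck1 and Ppargc1a) in WT, and among 5 feeding-induced genes 1 rose (Acacb) and 1 fell (Srebf1), against the same 21.6% of all genes. Acacb kept its call without any 1 library. The calls of Pdk4, Fgf21, Pck1 and Ppargc1a were lost without either WT-Control library, those of the last 3 also without WT-EtOH replicate 2, and that of Srebf1 without either WT-EtOH library.

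Heat shock genes, whose factor HSF1 follows daily changes in body temperature, included 3 that rose in WT out of 9 tested, against 10.8% of all genes (Hspa1b by 2.85, Hsph1 by 2.13 and Dnajb1 by 1.58 on the log2 scale, edgeR adjusted p = 0.00262, 0.00150 and 0.00908), of which Dnajb1 was lost without WT-Control replicate 1 or either WT-EtOH library. In Elf4-/- (2.89% of all genes in either direction) 1 of 9 rose, Hsp90aa1 by 1.51 (edgeR, adjusted p = 0.0421), and this call held only without WT-Control replicate 1, WT-Control replicate 2 or Elf4-/--EtOH replicate 2. Cirbp and Rbm3, which are induced by cold, did not pass, with log2 fold changes of −0.13 and 0.31 in WT. Hspa1b was lower in Elf4-/- than in WT under EtOH, by 2.70 ± 0.39 (SE; edgeR, adjusted p = 0.0414), a call lost without any 1 library other than the Elf4-/--EtOH libraries.

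Markers of other liver cells moved with the diet beside the clock genes. Of all genes, 10.8% rose and 10.8% fell in WT, and 2.89% passed in either direction in Elf4-/-. All 6 Kupffer cell markers rose in WT, where their sum was 151 to 199 CPM under Control and 504 to 557 under EtOH, and 1 of 6 rose in Elf4-/- (139 to 142 and 188 to 199 CPM). All 5 endothelial markers rose in WT (43.9 to 74.3 and 206 to 251 CPM) and 0 of 5 in Elf4-/- (109.7 to 112 and 104 to 172 CPM). Of 5 stellate cell markers 3 rose in WT (25.3 to 63.5 and 223 to 292 CPM) and 0 in Elf4-/- (76.8 to 109 and 178 to 303 CPM). The hepatocyte sum was 52383 to 72813 CPM in WT-Control and 31242 to 37449 in WT-EtOH, and 63924 to 71861 and 41593 to 52934 CPM in the Elf4-/- groups, with 1 of 7 markers lower in WT. None of the markers in these lists was at 0 in any library. Of 5 red blood cell genes 2 fell in WT, and no tested marker of cholangiocytes (5 tested), intestinal epithelium (3), neutrophils (2), T and B cells (1) or pancreatic acinar cells (1) passed in WT, while no adipocyte marker could be tested. The part of a changed cell makeup in the values of Nr1d1, Dbp and Tef was not tested.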

How the data were processed

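RNA of male mouse livers (total RNA in the labels, mRNA in the study's methods) was sequenced on an Illumina HiSeq with paired ends. The authors aligned reads to mm10 with HISAT2 and counted them per gene with HTSeq, and they deposited whole-number counts per gene symbol, not normalized. Tool versions, the annotation and the strand setting are not given in the sources used here. Genes were kept by edgeR's filterByExpr (13993 of 19267), scaled by TMM and fitted in all 8 libraries by the edgeR 4.0.16 quasi-likelihood test in R 4.3.3, with group as the factor and Benjamini-Hochberg adjustment at 0.05. Log2 CPM used a prior count of 2. DESeq2 1.42.0, other scalings, no filter, a replicate block and left-out libraries were the alternatives. Counting standard errors cover counting only, whereas the 95% intervals are from the fit and include the spread between libraries. Each group had 2 libraries of 6171051 to 9157362 counts. The named genes are the members, the 5 genes most like Arntl and the 5 most like Dbp, and in each other list at most 4 genes per contrast past the threshold, by smallest adjusted p. Alas1, Por, Bhlhe40, Cry2, Cirbp, Rbm3, Fkbp5 and the overlapping genes were named after their values were seen. The members and lists were chosen with earlier results of these data known. The fit was tested on simulated data. Coordinates are from GENCODE M21 (GRCm38), and promoter sequences from RefSeq.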

Additional observations from a re-analysis of the deposited data

Results flagged for a closer look

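The diet effect on Clock lay in opposite directions in the genotypes, with both EtOH libraries below both Control libraries in WT and above them in Elf4-/-. In WT the nearest EtOH and Control libraries had 24.9 and 25.2 CPM. Without 1 library the effect in Elf4-/- ran from 0.23 to 1.06 on the log2 scale. The effect in Elf4-/- minus that in WT was 0.90 on the log2 scale (SE 0.38, edgeR interaction term, unadjusted p = 0.0382, adjusted p = 0.463), which did not pass over all genes. With library totals alone the WT effect was 0.24 and no longer opposite. Without 1 library the interaction ran from 0.42 to 1.25.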

How the results depend on the processing

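Of 10 member effects past the threshold, none changed direction in 154 values under the alternatives, and 39 of these values no longer passed. Of 50 that did not pass, 33 of 785 values passed and 40 reversed. Each group holds 2 libraries, which limits every call, and Arntl rests on 5 to 85 counts a library. Whether the replicate numbers pair the samples is not given in the labels. With the replicate block 59 of 60 member values kept their side, the exception being Nr1d2 over both genotypes (edgeR, adjusted p = 0.0689). The cause of the changes below was not tested. The share of all genes called also differed between fits. For diet in Elf4-/- it was 2.89% as reported and 5.80% with DESeq2. It was 2.92% with DESeq2 size factors, 2.93% without the filter and 0.302% with only the libraries compared. For genotype under Control it was 0.0143% as reported and 0.565% with DESeq2. In that contrast it was 0.0357% with library totals, 0.0727% without the filter and 0.172% with only the libraries compared. For genotype under EtOH it was 0.143% as reported, 1.29% with DESeq2 and 0% with only the libraries compared. For the interaction it was 0% as reported and 0.793% with DESeq2. Leaving out libraries moved these shares too, so counts of called genes below do not by themselves show a change particular to the clock. The fits without both EtOH libraries numbered 1, or both numbered 2, were chosen after seeing the data.

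Members called under the diet in Elf4-/- numbered 1 as reported, 5 with DESeq2, 2 with its size factors, 3 without the filter, 0 with only the libraries compared, 7 without both EtOH libraries numbered 2, and 0 to 7 without 1 library. In WT there were 3, against 5 without both numbered 2 and 1 to 4 without 1 library. Over both genotypes there were 6, against 3 without both numbered 1 and 3 to 9 without 1 library. The interaction had 0, and 0 to 1 without 1 library.

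Of the 79 other listed genes, 27 were called for diet in WT (10 to 39 without 1 library) and 30 over both genotypes (18 to 39). In Elf4-/- 6 were called, against 10 with DESeq2, 0 with only the libraries compared, 21 without both numbered 2 and 0 to 21 without 1 library. Genotype under EtOH had 3, against 6, 0, 8 and 0 to 13 in the same order. Genotype under Control had 0, against 7 with DESeq2, 1 with library totals, 4 without the filter, 4 with only the libraries compared, 6 and 4 without both numbered 1 or 2, and 0 to 8 without 1 library. The interaction had 0, against 5 with DESeq2, 2 and 7 without both numbered 1 or 2, and 0 to 12.

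Library totals alone moved the median of all genes by 0.43 for diet in WT, and 3416 of 4050 calls there were higher, against 1517 of 3025 as reported. They reversed diet in WT for Clock (0.24), Per1 (0.22), Per2 (0.40) and Nr1d2 (0.28), genotype under EtOH for Per1 (−0.066), Per2 (−0.085) and Cry1 (−0.10), and genotype under Control for Dbp (0.028). Without both numbered 1, diet in WT reversed for Per1 (0.081), Per2 (0.21) and Nr1d2 (0.058), diet in Elf4-/- for Cry1 (−0.054), diet over both for Clock (−0.022), and genotype under EtOH for Arntl (−0.20), Clock (−0.036) and Per1 (−0.19). Without both numbered 2, genotype under EtOH reversed for Per2 (−0.76) and the interaction for Per1 (0.018).

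Without 1 library, genotype under EtOH ran from −1.13 to 2.01 for Arntl, −0.12 to 0.71 for Clock, −0.12 to 0.42 for Cry1, −1.09 to 1.74 for Dbp, −0.53 to 0.38 for Nr1d1, −0.13 to 0.56 for Per1, −1.06 to 0.77 for Per2, −0.38 to 1.03 for Per3 and −0.60 to 0.14 for Tef. The interaction ran from −0.26 to 2.89 for Arntl and −0.89 to 1.94 for Dbp. Diet in Elf4-/- ran from −0.056 to 0.41 for Cry1, and diet in WT from −0.42 to 0.052 for Nr1d2, −0.62 to 0.075 for Per1 and −0.35 to 0.21 for Per2.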
